A study of Brassica rapa and Brassica rapa x Brassica nigra and Brassica nigra with 18 samples.

Results

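The change from meiosis to mitosis was followed in anthers of an AB plant that holds the genome of Brassica rapa (A) and that of Brassica nigra (B) in haploid form. Per the labels, AB came from a cross of B. rapa as the mother with B. nigra as the father, and the submitters also name it Brassica juncea. All libraries labelled AB were taken: 3 at meiosis, labelled young anther, and 3 at mitosis, labelled anther, which makes 6 of the 18 libraries of the series. The other 12 are B. rapa (AA) and B. nigra (BB) at the same stages, 3 libraries per group, and serve here only for comparison. No plant age, treatment or number of plants is given, so the p-values measure the spread between libraries, which may be technical. The age of the anther goes with the stage in the labels, and these cannot be told apart.

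In an anther, spore mother cells go through meiosis inside a nutritive layer, the tapetum, and form haploid microspores. Each microspore later divides by mitosis into a vegetative and a generative cell and fills with transcripts that the pollen tube will use, while the tapetum degenerates. In many plants mature pollen is known for a transcript pool in which few genes make up much of the RNA. An AB haploid has no homologous partner for its chromosomes at meiosis, so its microspores often receive unbalanced sets, which is the known background of poor pollen fertility in such hybrids. A whole anther mixes these cell types: fewer cells of a type and less RNA per cell cannot be told apart in these libraries.

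The count table lists 79644 gene identifiers, 36454 with the letter A, 35686 with B and 7504 with O, the last being called unplaced genes here. The files do not pair identifiers with gene names, so pathways and cell type markers could not be read, and the labelled tissue could not be checked against them. The 6 AB libraries held 11261025 to 12161111 counts. Within a stage, libraries correlated at 0.986 or more across genes on the log2 scale (Pearson), and each pair differed by more than counting error, with a chi-square of 2.30 to 2.46 per degree of freedom. By these measures no library stood apart from the others of its stage, though mitosis replicate 3 did for the genes BjuA038096 and BjuB041169 below.

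Which genes switch between the stages, and whether both genomes switch alike, was asked with A, B and unplaced genes on a common scale. Most tested genes changed: with edgeR's quasi-likelihood test and a Benjamini-Hochberg adjusted p under 0.05, 34131 of 42649 genes, or 80.0%, differed between mitosis and meiosis. Higher at mitosis were 18025 genes (42.3%) and lower 16106 (37.8%). With upper-quartile scaling the balance turned, to 16733 higher and 17418 lower. The median log2 change of all genes was 0.10 with the scaling used here and -0.04 with that one. With all 18 libraries in the fit the balance moved the other way. Of 48507 genes tested, 22331 were then higher and 14602 lower, with a median of 0.35. Changes of at least 2-fold were called for 13311 genes (31.2%) in the higher and 10549 (24.7%) in the lower direction.

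The 2 genomes had nearly the same distribution of stage changes. Of 20463 tested A genes 80.3% were called: 8688 rose (42.5%) and 7749 fell (37.9%). Of 18935 tested B genes 79.6% were called: 7940 rose (41.9%) and 7135 fell (37.7%). The median log2 change was 0.10 for A genes, with a middle 50% from -0.99 to 1.4, and 0.09 for B genes, with a middle 50% from -0.99 to 1.39. Over all tested genes the median was 0.10. Of 3251 tested unplaced genes 80.6% were called: 1397 rose (43.0%) and 1222 fell (37.6%), with a median of 0.13. A rise of at least 2-fold was called for 31.2% of A genes and 31.0% of B genes, and a fall of that size for 24.8% and 24.6%. Among unplaced genes the shares were 32.4% and 25.0%. These shares were not tested against each other, since genes are not replicates.

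**Figure D1:**
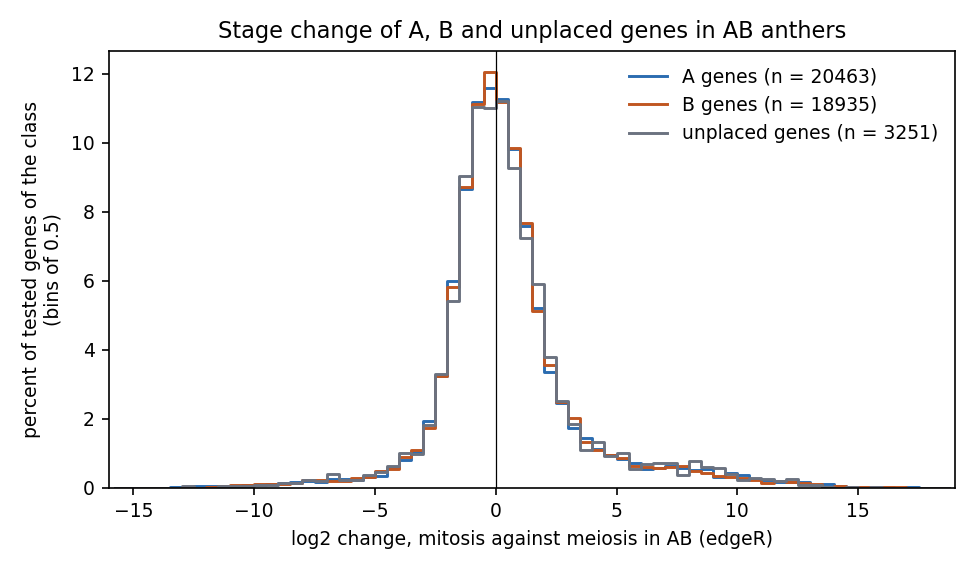
Distribution of the log2 change from meiosis to mitosis in AB over the tested A, B and unplaced genes, in percent of the genes of each class per bin of 0.5; values right of 0 are higher at mitosis. The 3 outlines lie almost on each other, with medians of 0.10, 0.09 and 0.13, and all have a longer shoulder of strong rises than of strong falls.

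Strong changes leaned to the mitosis side in every class. A rise of at least 32-fold was called for 3069 genes (7.2%) and a fall of that size for 952 (2.23%), so that 76.3% of the changes of this size were rises, against 52.8% of all calls. The rises of this size comprised 1512 A genes (7.39% of those tested), 1302 B genes (6.88%) and 255 unplaced genes (7.84%). The falls comprised 458 A genes (2.24%), 418 B genes (2.21%) and 76 unplaced genes (2.34%). Between 8- and 32-fold rises also led, with 2265 genes higher and 1238 lower. Between 2- and 8-fold falls were more frequent, with 8359 genes lower and 7977 higher.

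These groups show how far the transcript pool was replaced. The groups were made from the same contrast, so their shares are a description with no test. Genes higher by at least 32-fold held 0.107% ± 0.000883 of the meiosis counts and 27.2% ± 0.332 of the mitosis counts (SD, n = 3 libraries here and below). In the single libraries the mitosis values were 27.1, 27.0 and 27.6%. Genes lower by at least 32-fold held 10.5, 10.5 and 10.6% of the counts in the libraries at meiosis and 0.0700, 0.0750 and 0.0846% in those at mitosis. The 8359 genes that fell 2- to 8-fold held more counts than any other changed group at meiosis, 40.2% ± 0.0271, and 12.2% ± 0.0167 at mitosis. Genes that changed by less than 2-fold, or got no call, made up 44.1% of those tested and held 37.2% ± 0.0570 of the meiosis counts and 32.7% ± 0.181 of the mitosis counts.

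Both genomes showed this replacement. Within the A counts, genes higher by at least 32-fold went from 0.114% ± 0.00165 to 28.5% ± 0.365, and within the B counts from 0.103% ± 0.00248 to 26.8% ± 0.327. Among the unplaced counts the same group reached 20% ± 0.174. Genes lower by at least 32-fold held 10.4% ± 0.155 of the A counts, 9.91% ± 0.0821 of the B counts and 15.6% ± 0.0292 of the unplaced counts at meiosis. Their remainder at mitosis was 0.0594% ± 0.00833 of the A counts, 0.0776% ± 0.00692 of the B counts and 0.201% ± 0.00927 of the unplaced counts.

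**Figure D2:**
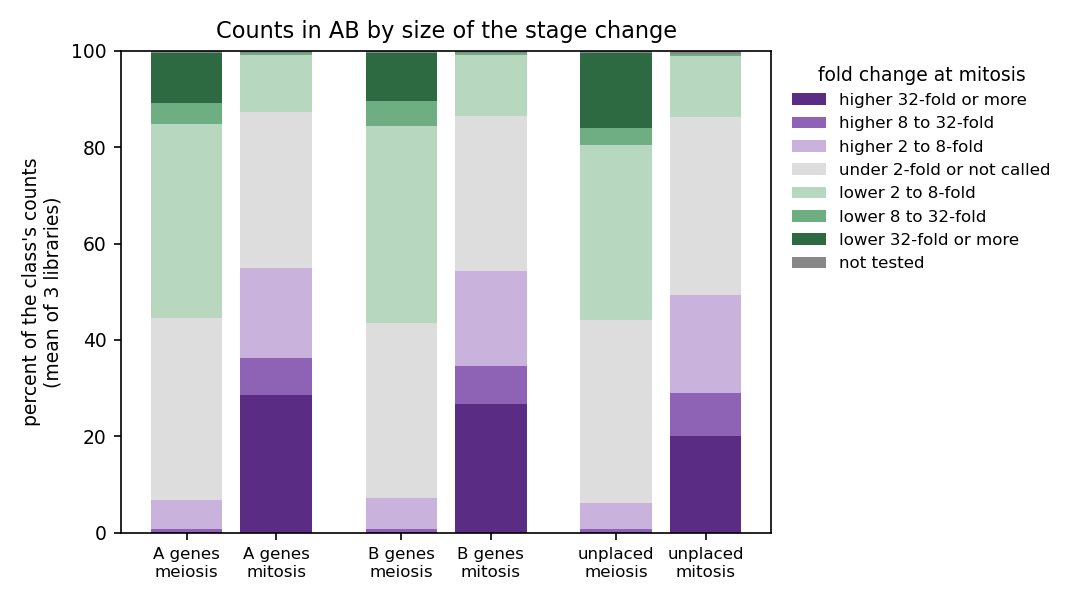
Percent of the counts of A, B and unplaced genes in AB (mean of 3 libraries per stage) that fall on genes grouped by the size and direction of their own stage change. The dark group at the bottom, genes higher by at least 32-fold, is hardly visible at meiosis and reaches 28.5, 26.8 and 20% at mitosis.

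The parents, whose libraries were not used to form the groups, moved the same way for nearly all strongly changed genes. In AA, 41.4% of 21897 tested A genes were called higher and 40.9% lower at mitosis. Of the A genes higher by at least 32-fold in AB, 1437 were tested in AA, where 1427 were higher and 4 lower, with a median log2 change of 7.92 against 7.82 in AB. In BB, 41.3% of 19876 tested B genes were called higher and 38.4% lower. Of the B genes higher by at least 32-fold in AB, 1198 were tested in BB, where 1185 were higher and 3 lower, with medians of 7.87 in BB and 7.61 in AB. Of the genes lower by at least 32-fold, 418 of 419 tested A genes were lower in AA and 371 of 373 tested B genes lower in BB.

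The strongly raised genes held a smaller part of the pool at mitosis in AB than in the parents. At mitosis the 1512 A genes reached 39.1% ± 0.516 of the AA counts on A genes, against 28.5% ± 0.365 in AB. The 1302 B genes reached 33.6% ± 0.520 in BB, likewise within B, against 26.8% ± 0.327 in AB. The groups were chosen on AB, which fixes the AB shares in part, so no test is given. At meiosis their shares were larger in the parents too, 0.467% ± 0.00225 in AA and 0.544% ± 0.00610 in BB.

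The 4 genes with the largest gain or loss of library share, 1 riser and 1 faller per genome, show the size of single switches. Their levels in AB are given as CPM, counts scaled to a common library size by TMM. Levels in the parents are CPM of all counts without TMM. The AB totals hold both genomes, so AB and parental levels are not on a common scale. BjuA005098 stood at 5.62, 4.5 and 5.15 CPM in the meiosis libraries and at 6461, 6696 and 6855 CPM in the mitosis libraries. It rose by 10.35 on the log2 scale (edgeR adjusted p = 2.21e-28, SE 0.06) and held 0.644% ± 0.0165 of all counts at mitosis. Its gain of library share, not its log2 change, was the largest among called A genes whose stages did not overlap. In AA it went from between 1.71 and 2.14 to between 2004 and 2922 CPM of all counts, with no overlap between stages.

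BjuB012396 had 0, 1 and 0 counts in the meiosis libraries and stood at 4769, 4945 and 5036 CPM in the mitosis libraries. Its ratio between stages was 166000, with a 95% interval from 29900 to 6570000 (exact binomial, counting error only), since it rests on 1 count. In BB the gene was already detected at meiosis, with 5.03 to 6.18 CPM of all counts, and reached 4415 to 4489 CPM at mitosis.

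BjuA038096 stood at 9843, 9949 and 10084 CPM at meiosis, 1.02% ± 0.0113 of all counts, and had 0, 0 and 36 counts at mitosis. All its counts at mitosis came from replicate 3, so its fall on the log2 scale, -13.17 in edgeR (adjusted p = 3.09e-22, SE 0.21), depends on 1 library. Leaving replicate 3 out gave -19.82, which is no measured size, since the gene then had 0 counts at mitosis. BjuB041169, at 11582, 11933 and 12163 CPM at meiosis, held 1.22% ± 0.0286 of all counts, the highest share of any B gene that fell. It had 8, 4 and 41 counts at mitosis, and its fall was -12.87 on the log2 scale (edgeR adjusted p = 2.75e-24, SE 0.15), or -14.39 without mitosis replicate 3. Both genes were also high at meiosis and near 0 at mitosis in their parent. BjuA038096 stood at 10647 to 10966 CPM of all counts in AA at meiosis and at 0 to 0.356 at mitosis. BjuB041169 stood at 18045 to 18501 CPM of all counts in BB at meiosis and at 0.102 to 0.468 at mitosis, and reached up to 117 CPM in AA libraries. The 4 genes have short coding lengths of 246 to 444 bases, against a median of 1119 bases over all tested genes.

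Coding length differed between the directions. Genes higher by at least 2-fold had a median coding length of 1230 bases and genes lower by at least 2-fold of 921 bases, and the values were 1221 and 933 for A genes and 1239 and 912 for B genes. Among changes of at least 32-fold the medians were close, at 1005 and 969 bases. Counts are not corrected for length, and FPKM, which are counts per coding length and library total, are therefore given beside some measures of concentration.

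The 100 most abundant genes were replaced almost entirely, and the 1000 most abundant less so, with 272 of them shared between stages. Of the 100 genes with most counts at meiosis, 7 were also among the 100 with most counts at mitosis. Those 100 meiosis genes held 14.1% ± 0.0857 of the meiosis counts and 2.80% ± 0.0399 of the mitosis counts, where their median rank was 868. The 100 leading genes at mitosis held 1.81% ± 0.0214 at meiosis, with a median rank of 35803 there, and 75 of them had risen at least 32-fold. Of the 100 leading meiosis genes, 29 fell at least 32-fold. Within the A genes 9 of the leading 100 were shared between stages, within the B genes 12 and within the unplaced genes 32. With 5064 unplaced genes detected, against 29497 A and 27710 B genes, 100 genes are a larger part of the unplaced class. Of the leading 1000, 36.6% were shared within the A genes and 38.7% within the B genes.

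The concentration of counts was asked next, that is, how many genes make up the pool. More genes were detected with at least 1 count at mitosis, 53404 ± 186 against 51505 ± 48.9, although 2 of the mitosis libraries had the smallest totals of the 6. The 10 most abundant genes took 5.82, 5.74 and 5.94% of the counts in the meiosis libraries and 4.01, 4.07 and 4.12% in the mitosis libraries. The 1000 most abundant took 37.5% ± 0.0904 and 39.2% ± 0.224, an order that turned as FPKM, with 47.9% ± 0.207 at meiosis and 46.1% ± 0.304 at mitosis. The top of the list was thus flatter at mitosis and the ranks below it heavier: ranks 11 to 100 held 8.27% ± 0.0314 at meiosis and 12% ± 0.143 at mitosis. The stages did not overlap in any of these. Two-sided exact permutation tests with 3 libraries against 3 can give no p under 0.1. Of 16 such tests, 4 measures in 4 sets of genes, 12 showed no overlap, with an exact permutation p of 0.1 and an adjusted p of 0.133.

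The same crossing appeared in each genome. Among A genes the 10 most abundant took 7.33% ± 0.146 of the A counts at meiosis and 6.08% ± 0.0633 at mitosis, and among B genes 8.45% ± 0.0889 and 7.69% ± 0.109 of the B counts. For the leading 100 A genes the share was 18.6, 18.5 and 18.7% at meiosis and 21.3, 21.5 and 21.7% at mitosis. For the leading 100 B genes it was 20.5, 20.5 and 20.6% at meiosis and 24.1, 24.4 and 24.7% at mitosis. All mitosis libraries lay above all meiosis libraries in both genomes. As FPKM the step of the 100 most abundant genes was smaller, 0.886 percentage points for A and 1.59 for B genes, against 2.89 and 3.85 in counts.

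The width of the pool, measured as how many genes add up to 50% of its counts, depended on the unit and on the genes taken. For A genes it was 1020.0, 1023 and 1014 at meiosis and 1039, 1030.0 and 1018 at mitosis, and the stages overlapped (exact permutation p = 0.3). As FPKM the A number went from 539 ± 8.74 to 626 ± 11.9, with no overlap. For B genes it was 901, 899 and 896 at meiosis and 880.0, 858 and 853 at mitosis, with no overlap; this direction turned as FPKM, where the B number was higher by 47.3 at mitosis. The unplaced genes differed most: 157, 158 and 157 genes made up 50% of their counts at meiosis and 218, 218 and 217 at mitosis. Their leading 100 genes held 41.8% ± 0.0402 at meiosis but 37.0% ± 0.0287 at mitosis, the opposite order to that in the A and B genes.

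**Figure D3:**
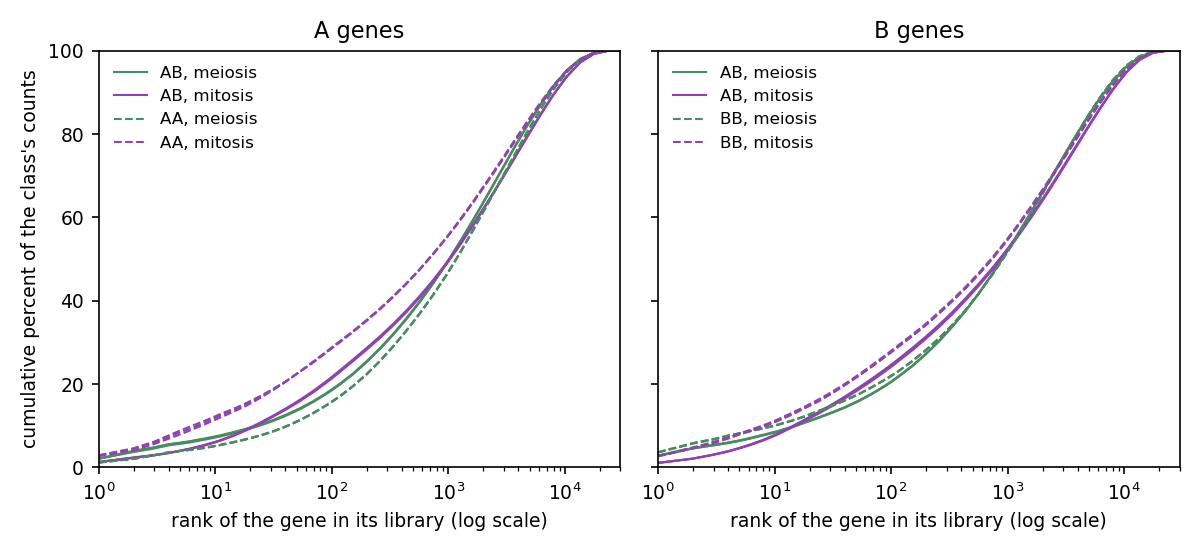
Cumulative percent of the counts of A genes (left) and B genes (right) against the rank of the gene in its own library on a log axis, 1 line per library. In AB the line for mitosis starts below that for meiosis, with 6.08 against 7.33% at rank 10 for A genes, and lies above it at rank 100, with 21.5 against 18.6%; the mitosis lines of the parents, dashed, lie higher there.

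The A and B genomes of AB were then compared within each library. At both stages the A counts were spread over more genes. The A genes that add up to 50% of the counts outnumbered those of B by 118 to 124 at meiosis and by 159 to 172 at mitosis. The stage change of A minus that of B was 45 genes, and the ranges of the within-library differences did not overlap (exact permutation p = 0.1, the smallest possible). For the share of the 100 most abundant genes, A minus B was -1.91 ± 0.0876 percentage points at meiosis and -2.87 ± 0.0945 at mitosis, a difference of -0.959.

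This difference between the genomes depended on which genes were counted as A and as B. Some identifiers with the letter A are counted in BB, which has no A genome, and the reverse. Among tested genes, 1961 A genes (9.58%) and 1376 B genes (7.27%) had at least 10% of the CPM summed over both parents in the wrong parent. Tested or not, 3065 A and 2136 B genes met this limit, and they held 9.48% ± 0.0326 of the A and 8.12% ± 0.0129 of the B counts in AB at meiosis. Without such genes the stage changes in pool width were -20.7 for A, with no overlap between stages, and -25.7 for B, and the difference fell to 5.0 genes, with overlapping ranges. Under the same choice the difference in the share of the 100 most abundant genes turned to 0.485 percentage points.

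Grouping genes by parental source in place of the letter brought the genomes closer. Genes with 90% or more of their parental CPM in AA or in BB were taken as A or B, and they covered 94.55 to 94.79% of the AB counts. This grouping was chosen after the data were seen, and it brings in unplaced genes, of whose counts 73.1% ± 0.164 at meiosis came from genes with BB as their source and 22.8% ± 0.106 from genes with AA. The genes that make up 50% of the counts then numbered 1000 ± 5.57 for A and 993 ± 2.0 for B at meiosis, and 1018 ± 9.50 and 985 ± 15.9 at mitosis. Taken within each library, A still outnumbered B, by 3 to 12 genes at meiosis and by 24 to 37 at mitosis, with no overlap. The A share of the counts was 50.4, 50.4 and 50.4% in the meiosis libraries and 50.5, 50.6 and 50.5% in the mitosis libraries. By the letter alone it was 52.9% ± 0.0331 and 53.2% ± 0.0131. Stage calls hardly moved with the grouping: 42.2% of tested genes with AA as source were higher and 38.5% lower, and 41.9% and 37.7% of those with BB as source.

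The A share differed by abundance. Among the 10 most abundant genes of a library, A genes held 48.9% ± 0.634 of the counts on A and B genes at meiosis and 36.0% ± 0.258 at mitosis. All 3 meiosis libraries had 4 A, 5 B and 1 unplaced gene there, and all 3 mitosis libraries 3 A and 7 B genes. As FPKM the share at these ranks was 52.0% ± 0.791 and 45.4% ± 3.56. At ranks 11 to 100 the order turned, with 53.4% ± 0.970 at meiosis and 55.6% ± 0.420 at mitosis. From there to rank 1000 the stages overlapped, at 53.8% ± 0.351 and 53.9% ± 0.165. From there to rank 10000 the values were 53.3% ± 0.142 and 54.8% ± 0.286, with no overlap.

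**Figure D4:**
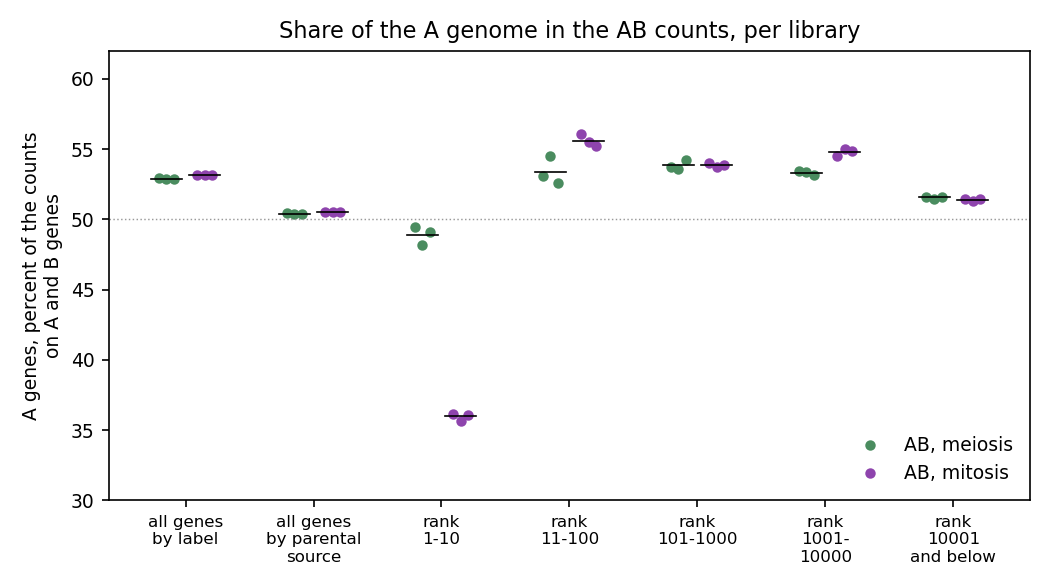
Percent of the counts on A and B genes that fell on A genes, per AB library (points) with the mean of 3 (lines), for all genes grouped by letter or by parental source and, by letter, in bins of abundance rank. The axis starts at 30%; the lowest points are the mitosis libraries at ranks 1 to 10, with a mean of 36.0%, and grouping by parental source puts all 6 libraries at 50.4 to 50.6%.

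By size of the stage change, with no test, A genes held 54.7% ± 0.0844 of the mitosis counts on genes higher by at least 32-fold. Of the meiosis counts on genes lower by at least 32-fold they held 54.1% ± 0.429, and of the counts on those genes at mitosis 46.4% ± 1.82. Among genes below 2-fold or without a call they held 53.7% ± 0.0481 at meiosis and 53.3% ± 0.0796 at mitosis.

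Over the genes of a single genome, AB and its parents differed in the stage change of concentration. In AA the number of A genes behind 50% of the A counts went from 1171 ± 4.36 at meiosis to 680 ± 4.04 at mitosis, a change of -491 against 10.0 in AB. In BB the number of B genes went from 911 ± 1.53 to 731 ± 9.71, a change of -181 against -35.0 in AB. The AB change minus the parental change was 501 genes for A and 146 genes for B, each with p = 0.005 in a two-sided exact permutation of the AB and parent labels within stage, the smallest of its 400 arrangements, and 0.0075 after adjustment over 6 tests. As FPKM the difference for A was 262 genes, from a change of -175 in AA and 87.7 in AB (exact permutation p = 0.005). All AB libraries at mitosis lay above all parental ones, and at meiosis all lay below them. The test gives its smallest p where levels cross between stages in this way, so this p also reflects the level differences.

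The step in the share of the 100 most abundant genes was smaller in AB than in AA and in BB. Among A genes it went from 15.7% ± 0.0555 to 28.7% ± 0.131 in AA, a step of 12.9 percentage points against 2.89 in AB. The difference of -10.1 points had p = 0.005 in the same exact permutation test, with AB above AA at meiosis and below it at mitosis. Among B genes the step was 5.80 points in BB, from 21.95% ± 0.0599 to 27.75% ± 0.204, and 3.85 in AB. The difference was -1.95 points (exact permutation p = 0.155). BB lay above AB at both stages here, so swapping labels can give a larger difference than the observed one. This p therefore does not decide whether the B steps differ. The 10 most abundant A genes differed by -7.97 points (exact permutation p = 0.005): their share was 5.14% ± 0.0400 at meiosis and 11.9% ± 0.412 at mitosis in AA. For the 10 most abundant B genes the difference was -1.72 points (exact permutation p = 0.26), and as FPKM it turned to 3.06 points (exact permutation p = 0.005). In counts BB again lay above AB at both stages, while as FPKM the levels crossed. At meiosis the A pool of AB was narrower than that of AA, with 1019 ± 4.58 genes against 1171 ± 4.36, and the B pool had 899 ± 2.52 genes in AB against 911 ± 1.53 in BB.

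**Figure D5:**
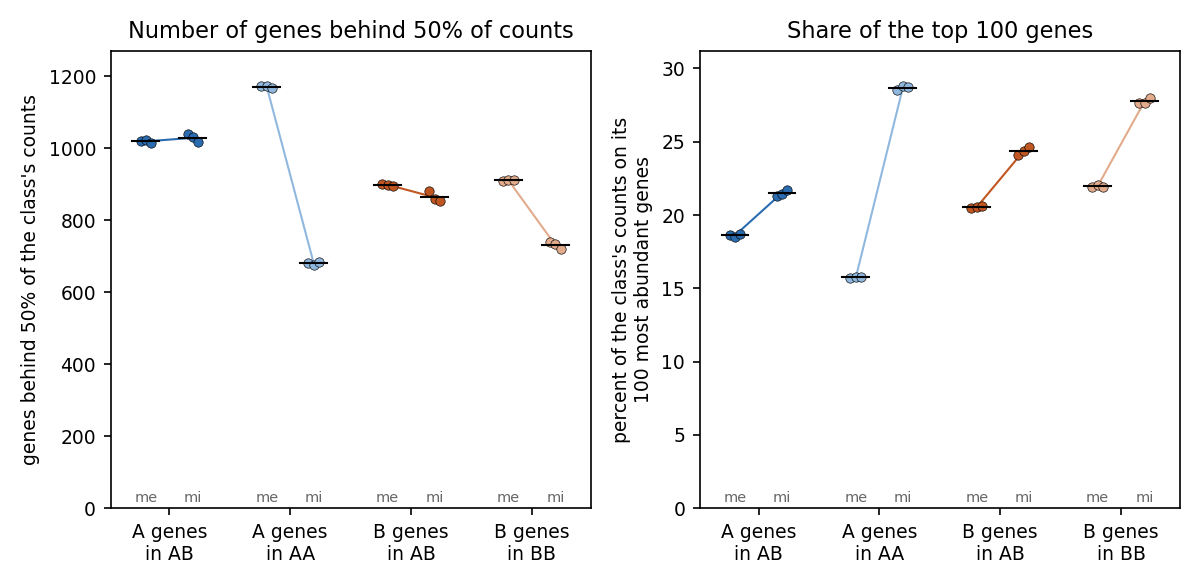
Number of genes behind 50% of the counts (left) and percent of the counts on the 100 most abundant genes (right), over A genes in AB and AA and over B genes in AB and BB. Points are libraries at meiosis (me) and mitosis (mi), short black lines are means of 3, and both axes start at 0; the AA line falls from 1171 to 680 genes while A genes in AB stay between 1014 and 1039.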

How the data were processed

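The values used are raw gene counts and FPKM as the authors deposited them. HTSeq 0.6.0, TopHat2, HISAT2 2.1.0 and Bowtie 1.0.1 are named in the submitters' processing notes; what each did, and which build, annotation and strandedness applied, is not given in the sources. The deposited FPKM equal the count over a fixed length per gene and the library total, and 99.9% of these lengths are multiples of 3, hence coding lengths. Reads were assigned to A, B and unplaced genes in 1 table, so near-identical A and B copies can share reads. The count table had 1 column (a second copy of an AA library, with identical values) that was not used. None of the identifiers matched a reference of 51589 B. rapa genes from RefSeq (0 matches), so marker lists and sequences were not used.

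For the 6 AB libraries, edgeR 4.0.16 under R 4.3.3 compared the counts (filter for low counts by group, TMM factors, quasi-likelihood F test, Benjamini-Hochberg over 42649 genes, called at 0.05). The common dispersion was 0.00704, and standard errors come from the F statistics. Each parent was fitted over its own genome alone. Concentration used raw shares of counts per library with exact permutation tests. Alternatives used DESeq2 1.42.0 and limma 3.58.1 on log2(FPKM + 1). The rule named, in A and in B, the gene with the largest gain and the gene with the largest loss of library share among called genes whose stages did not overlap. The members, measures and lists were chosen with earlier results of these data known. Intervals take in no more than counting error, because the counts were summed over the libraries of a stage, which leaves out the spread between them. The counting error is that of reads, which carry no molecular identifiers.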

Additional observations from a re-analysis of the deposited data

Results flagged for a closer look

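The stage change of concentration differed between AB and a parent in 4 of 6 measures by the exact permutation of labels within stage. Over A genes, AB minus AA was -7.97 percentage points for the 10 most abundant genes, -10.1 points for the 100 most abundant genes and 501 genes for the number behind 50% of the counts. Over B genes, AB minus BB was 146 genes for the number behind 50% of the counts. The test asks whether AB and parent labels can be exchanged at each stage, so a level difference between AB and a parent also enters its null distribution. For the 10 and the 100 most abundant B genes BB lay above AB at both stages in counts. There the test does not decide whether the stage changes differ.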

How the results depend on the processing

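Over the alternatives run, 411 values stayed the same, 32 moved, 9 reversed and 1 lost its call. The causes were not tested. What counted as the same differed by result. Counts of called genes had to stay within 1.5 times of their value. Concentration and A share in AB had to stay within 1 SD of the libraries. The 411 also include stage changes of concentration with libraries paired by replicate number. These equal the main value by construction and check nothing. AB minus parent and the 4 named genes had to keep their direction and their side of the threshold. Every count of called genes stayed within 1.5 times of its value. The stage change of the share of the 100 most abundant genes was 1.971 points over all genes, 2.894 over A and 3.852 over B genes. As FPKM it was 0.9874, 0.8862 and 1.59. Without genes drawing 10% or more from the wrong parent it was 2.189, 3.846 and 3.362. With a limit of 50%, added after seeing the data, it was 2.19 over all and 4.276 over B genes. By parental source, also added then, it was 3.161 for A and 2.67 for B. The 10 most abundant genes gave -1.766, -1.245 and -0.7549, and the most abundant 1% gave 3.301, 3.163 and 4.209.

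A minus B for the 100 most abundant genes, -0.9587, was -0.7041 as FPKM, 0.4848 under the 10% limit, -1.305 under the 50% limit, 0.4911 by parental source and -0.4902 for the 10 most abundant genes. Pool width, as genes adding up to 50% of the counts, changed by 20 over all genes, 10.0 over A and -35.0 over B genes. As FPKM the values were 175.0, 87.67 and 47.33, and as the effective number of genes 474.6, 225.6 and 91.77. The 10% limit gave 0.3333 over all and -20.67 over A genes, the 50% limit 21.0 over A and -57.67 over B genes, and parental source -7.667 over B genes. A minus B, 45, was 5.0 and 78.67 under these limits, 25.33 by parental source and 133.8 as the effective number. AB minus BB as the effective number was 515.2 (exact permutation p = 0.125), with AB above BB at both stages, so this p does not decide whether the changes differ. The A share of A and B counts, which changed by 0.2879 points, changed by 0.6058 without the 100 most abundant genes, 0.3798 as FPKM, 0.3855 and -0.1274 under the 10% and 50% limits, and 0.1518 by parental source.

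Leaving out 1 library at a time gave 17620 to 18070 genes higher and 15862 to 16133 lower, and changes in pool width of 5.0 to 15.5 for A and -43.17 to -29.67 for B genes. With the replicate number as a replicate block, 17723 genes were higher and 15823 lower. Same-numbered libraries of the 2 stages deviated from their stage means with correlations of -0.000998 to 0.0153. For differently numbered libraries the range was -0.028 to 0.0187, so no pairing was seen by this measure. Counting error enters every deviation, so the measure cannot decide whether same-numbered libraries share a plant or batch. With 11261025 to 12161111 counts per library, genes of a few counts at 1 stage have wide ratios.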

Other observations

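Some genes were seen at 1 stage only. With 0 counts in the 3 libraries of a stage, which allows up to 3 counts, and a mean of at least 10 CPM of all counts at the other, 459 genes were found at mitosis alone and 99 at meiosis alone. The first set held 240 A, 184 B and 35 unplaced genes, and the second 52 A, 42 B and 5 unplaced genes. These come from classes of unequal size, with 29497 A, 27710 B and 5064 unplaced genes having any count in AB. The highest mean in the first set was 1762 CPM, and in the second 171.5 CPM. Of the 62271 genes with any count in AB, 52553 had counts at both stages.

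The genes labelled for a genome whose main parental source is the other parent moved in opposite ways. A genes with 50% or more of their parental CPM in BB held 3.7% ± 0.0179 of the A counts at meiosis and 4.29% ± 0.0328 at mitosis. B genes with 50% or more in AA held 4.33% ± 0.0147 of the B counts at meiosis and 3.32% ± 0.0381 at mitosis.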
